A study of Mus musculus with 12 samples.

Results

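Mouse embryonic stem (ES) cells of 2 lines were compared after 7 days of neural differentiation, both with doxycycline (Dox) in the medium. One line, rtTA-Dmrt5, carries a tetracycline-inducible Dmrt5 transgene together with the activator rtTA, and the other is the parental rtTA line, whose name shows the activator alone. The comparison rests on 4 of the 12 arrays of the study, 2 titled rtTA-Dmrt5 with Dox and 2 titled rtTA with Dox, and on the 34945 of 45101 probe sets that name 1 gene, read as 18193 genes. All cells grew as a monolayer in N2B27, a serum-free medium in which ES cells turn towards neural fates, and Dox was added on day 5. The 2 rtTA-Dmrt5 and 2 rtTA arrays of day 7 without Dox, labelled alike but for the missing Dox, show how the lines stood without it. Both lines carry rtTA. The labels give neither the promoter behind rtTA nor the number of ES-cell clones behind a line, and nothing in them tells whether replicates came from separate cultures, so p-values reflect the spread of the arrays at hand, which could be technical.

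Doxycycline lets rtTA bind tetracycline operator sequences and switch on the gene placed behind them, so that the parental line with Dox is the usual control for effects of the drug and of the activator. The gene symbol for Dmrt5 is Dmrta2, and its product is a transcription factor with a DM domain, the DNA-binding fold shared by doublesex and mab-3. In the mouse embryo Dmrta2 is known for its part in the cerebral cortex, the cortical hem and the ventral midbrain. ES cells in monolayer culture leave pluripotency, pass through neural progenitors and give rise to neurons, and other lineages such as endoderm can arise beside them.

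Values are log2 values from which each probe set's median over the 12 arrays was subtracted, so they show differences between arrays and no level. A difference is rtTA-Dmrt5 minus rtTA on this log2 scale, given with its standard error (SE) from limma over n = 2 arrays in each group, and adjusted p stands for the Benjamini-Hochberg value over all genes. A gene is called higher or lower where adjusted p is under 0.05. "Without Dox" always means the same difference between the lines in the arrays labelled -Dox.

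The targeted gene did not follow the labels. Dmrta2, read by 1 probe set, stood at 0.41 and -0.28 in the rtTA arrays labelled +Dox and at -0.14 and -0.95 in the corresponding rtTA-Dmrt5 arrays. The groups overlapped, and the difference was -0.61 ± 0.33 (adjusted p = 0.228). In the arrays labelled -Dox it stood at -0.22 and 0.14 in rtTA but at 1.91 and 1.85 in rtTA-Dmrt5, a difference of 1.92 ± 0.33 (adjusted p = 0.00221). The line difference was therefore lower with Dox than without it, by a tested change of -2.52 ± 0.47 (adjusted p = 0.0208). No source used here tells which stretch of the mRNA this probe set covers or whether the transgene contains it, so the groups are called by their labels throughout.

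The promoter of Dmrta2 is shown with those of Nr2e1 and Wnt1, among the genes whose line difference changed most between the arrays with and without Dox, Nr2e1 downwards and Wnt1 upwards. Sequences are RefSeq's, in GRCm38.p6, 250 bases before to 50 bases after the gene's start, 5' to 3' on the gene's strand, at chr4:109977775-109978074 (+) for Dmrta2, chr10:42583541-42583840 (-) for Nr2e1 and chr15:98789607-98789906 (+) for Wnt1. Capitals mark matches to ACATTGT or its reverse complement ACAATGT, the core of the motif that DM-domain factors are known to bind.
Dmrta2: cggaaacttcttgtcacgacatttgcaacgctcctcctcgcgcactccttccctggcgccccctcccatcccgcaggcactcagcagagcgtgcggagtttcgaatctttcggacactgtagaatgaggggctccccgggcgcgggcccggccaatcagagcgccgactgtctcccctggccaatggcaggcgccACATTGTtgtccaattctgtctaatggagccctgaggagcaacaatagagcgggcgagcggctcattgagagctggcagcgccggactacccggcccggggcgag
Nr2e1: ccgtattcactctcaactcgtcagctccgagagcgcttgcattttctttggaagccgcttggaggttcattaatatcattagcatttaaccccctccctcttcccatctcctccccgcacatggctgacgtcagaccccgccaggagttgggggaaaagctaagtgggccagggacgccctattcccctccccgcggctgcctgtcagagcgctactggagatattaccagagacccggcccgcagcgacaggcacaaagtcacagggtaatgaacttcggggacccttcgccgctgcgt
Wnt1: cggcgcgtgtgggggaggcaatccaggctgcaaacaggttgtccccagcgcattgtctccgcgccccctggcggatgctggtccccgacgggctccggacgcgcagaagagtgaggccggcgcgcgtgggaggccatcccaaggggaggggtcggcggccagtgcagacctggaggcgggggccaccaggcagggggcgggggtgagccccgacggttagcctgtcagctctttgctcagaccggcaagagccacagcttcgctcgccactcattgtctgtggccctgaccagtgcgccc
The Dmrta2 window holds 1 match, which begins 55 bases before the start, and the other two hold none. Of all 32851 RefSeq promoter windows of this length 2.96% hold a match. Among genes with a promoter entry the share was 2.34% for all genes measured (338 of 14452), 1.98% for genes called higher with Dox and 2.13% for genes called lower. For genes whose line difference was called more positive with Dox it was 0.87% (1 of 115), and for more negative ones 1.52% (4 of 264). A match is a description of letters and no evidence of binding.

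With Dox the lines differed widely. In rtTA-Dmrt5, 2488 genes were higher (13.7% of the 18193 tested) and 1980 were lower (10.9%), 4468 in all (24.6%). At least 2-fold differences were reached by 1095 of them (6.02%), 647 of the higher genes (3.56%) and 448 of the lower ones (2.46%). All 4468 had separate arrays, that is, no value of one line lay between values of the other, as did 62.1% of all genes. By list, most endoderm genes were higher (16 of 19), and most pluripotency (15 of 18), neuronal (15 of 18) and ventral telencephalon genes (8 of 13) were lower. Of 16 cell cycle genes and 14 respiratory chain genes 1 each was called. Leaving out the first or the second rtTA-Dmrt5 array with Dox lowered the total from 4468 to 2874 and 2888.

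The median absolute difference between replicates over all genes was 0.14 in rtTA and 0.099 in rtTA-Dmrt5 with Dox, and array medians ran from -0.01 to 0.01. Hybridisation spike-ins, added at equal amounts, averaged -0.05 and -0.25 in the rtTA arrays and -0.36 and -0.02 in the rtTA-Dmrt5 arrays, so the lines overlapped there. For Actb the 3' probe set minus the 5' one, which tracks RNA integrity, came to -0.20 and -0.24 in rtTA and 0.05 and -0.13 in rtTA-Dmrt5, and these did not overlap. The same measure for Gapdh was -0.051 and -0.035 in rtTA and 0.027 and -0.025 in rtTA-Dmrt5, again without overlap. The part of RNA integrity in the differences below was not tested. All 6 neural progenitor markers and all 6 neuron markers had a recovered median log2 level of at least 8 (a class read from the spacing of the deposited digits), and 2 of 5 endoderm markers reached that class too. Arrays of a cell mixture cannot tell fewer cells of a type from less RNA per cell.

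**Figure D1:**
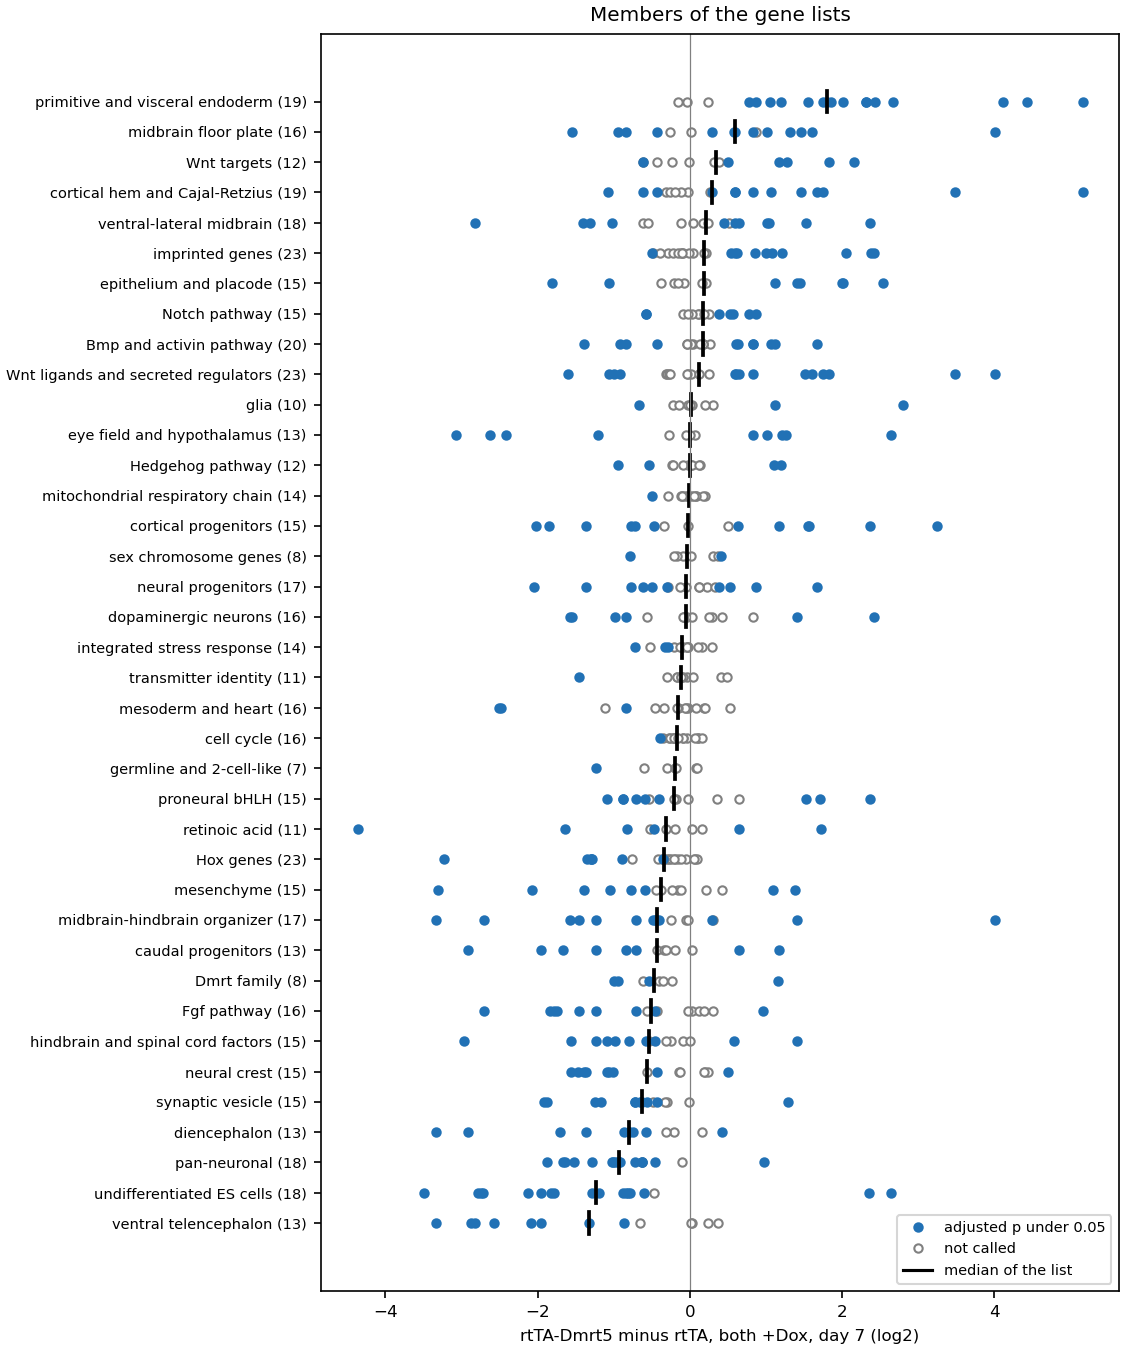
Line difference with Dox of every measured member of 38 gene lists, as rtTA-Dmrt5 minus rtTA at day 7 on the log2 scale; each point is a gene, filled where limma's adjusted p was under 0.05, and the bar is the median of the list. The endoderm list lies furthest to the right (median 1.81) and the ventral telencephalon list furthest to the left (median -1.33), while most members of the respiratory chain and cell cycle lists lie near 0.

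The largest positive difference was that of S100g. This gene of the calcium-binding protein calbindin-D9k read -6.003 and -6.95 in rtTA and 0.24 and 0.31 in rtTA-Dmrt5, a difference of 6.75 ± 0.53 or 108-fold (adjusted p = 1.75e-05). Both rtTA-Dmrt5 arrays lay far above both rtTA arrays, and so they did without Dox (6.17 ± 0.53). Ttr, the thyroid hormone carrier transthyretin made by visceral endoderm, liver and choroid plexus, read -3.21 and -5.13 in rtTA against 0.90 and 1.09 (5.16 ± 0.59; adjusted p = 0.000181). Its rtTA arrays lay far from each other, and both lay below the rtTA-Dmrt5 arrays. Srgn, the granule proteoglycan serglycin, also spread widely in rtTA, at -3.99 and -5.38 against 0.38 and 0.47 (5.11 ± 0.49; adjusted p = 6.08e-05).

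F3, the tissue factor that starts blood coagulation, differed with far less spread, at -4.16 and -4.58 in rtTA and 0.70 and 0.61 in rtTA-Dmrt5 (5.03 ± 0.17; adjusted p = 4.88e-07). The rest of the 12 largest increases were Ddn, the postsynaptic and podocyte protein dendrin (4.95), the Golgi-associated kinase-like gene Gask1b (4.81), the lysosomal protease gene Ctsh (4.74), the cell-surface peptidase gene Dpp4 (4.45), the endoderm factor Sox17 (4.44), the Igf-binding protein gene Igfbp1 (4.41), the pepsinogen gene Pga5 (4.26) and the glycosyltransferase gene B4galnt2 (4.25). Their arrays did not overlap between the lines. Probe sets of a gene disagreed for Dpp4, whose lowest of 4 read -0.23, and for B4galnt2, whose lowest of 4 read -0.08. Without Dox 11 of the 12 were called higher as well, by between 1.84 (Srgn) and 6.17 (S100g), and Ttr differed by 1.71 without passing (adjusted p = 0.0566).

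Primitive and visceral endoderm genes, which mark the extraembryonic lineage that forms beside the epiblast, were the most uniformly higher group. Of 19 measured members 16 were higher in rtTA-Dmrt5 with Dox and none lower, with a median difference of 1.81 against 0.0009 over all genes. Sox17, a Sry-related factor of endoderm, read -3.45 and -4.38 in rtTA and 0.58 and 0.47 in rtTA-Dmrt5 (adjusted p = 2.44e-06). Gata4, a zinc-finger factor that drives this lineage, read -1.76 and -2.33 against 0.59 and 0.67 (2.68 ± 0.20; adjusted p = 1.33e-05). Gata6, its partner, was higher by 1.75 ± 0.17, with the lowest of its 3 probe sets at 0.09. Dab2, an endocytic adaptor of this epithelium, read -2.79 and -3.04 against 1.19 and 1.20 (4.11 ± 0.18), and every one of these genes separated the lines without overlap.

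Basement membrane genes of the same list moved together: Lama1 (2.32), Lamb1 (2.44), Col4a1 (2.01), Col4a2 (1.55) and Sparc (1.81) were higher with Dox. The nuclear receptor Hnf4a was higher by 2.31, although its 4 probe sets ran from -0.13 to 4.76, and the lowest of 3 for Sparc read -0.05. Afp (-0.03), Amn (-0.15) and Apoe (0.23) were not called. Averaged over the list, the arrays stood at -1.35 and -1.53 in rtTA and 0.43 and 0.52 in rtTA-Dmrt5 with Dox. Without Dox 14 of the 19 were higher and none lower (15.2% and 13.4% of all genes were called higher and lower there), 13 members were called in both conditions, and the averages were -1.10 and -1.33 against 0.18 and 0.09. The lines did not overlap in either condition.

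Keratin genes of simple epithelia were higher as well. Of 15 epithelium and placode genes 6 were higher and 2 lower with Dox (median 0.18), against 13.7% and 10.9% of all genes. The keratin genes of simple epithelia Krt8 (2.002), Krt18 (2.01) and Krt19 (2.53) were higher, as were Krt7 (1.12) and the tight-junction genes Cldn6 (1.45) and Cldn7 (1.41). Krt19 read -1.69 and -1.41 in rtTA and 0.90 and 1.07 in rtTA-Dmrt5. The adhesion genes Epcam (-0.37) and Cdh1 (-0.20) were not called, the epithelial factor Grhl2 (-1.80, with the highest of its 4 probe sets at 0.29) and the surface ectoderm and neural crest factor Tfap2a (-1.06) were lower, and the keratins of stratified epithelium Krt5 (-0.08) and Krt14 (0.18) were not called.

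Imprinted genes, expressed from 1 parental allele and often tied to growth, held 10 higher and 1 lower among 23 (median 0.19). Of all genes 13.7% were higher and 10.9% lower. Dlk1, a non-canonical Notch ligand, was higher by 2.43 ± 0.12, Nnat (neuronatin) by 2.39 ± 0.11 and the long non-coding RNA Kcnq1ot1 by 2.05 ± 0.24. Mest (1.21), Sgce (1.08), Cdkn1c (1.01), Plagl1 (0.86), Peg3 (0.62), Ndn (0.60, lowest probe set -0.09) and Magel2 (0.54) were the other higher members. Mirg, a transcript of the Dlk1-Dio3 region, was the lower one (-0.50), so Dlk1 and Mirg of the same region differed in opposite directions.

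Pluripotency genes were lower in rtTA-Dmrt5. Of 18 markers of undifferentiated ES cells 15 were lower and 2 higher with Dox, with a median of -1.23. Pou5f1, which encodes Oct4, read 2.14 and 2.40 in rtTA and -0.63 and -0.41 in rtTA-Dmrt5 (-2.79 ± 0.16; adjusted p = 2.82e-06). Nanog read 1.29 and 1.26 against -0.63 and -0.48 (-1.83 ± 0.15). Dppa2, a chromatin factor of pluripotent cells, read 2.68 and 2.66 against -0.77 and -0.86 (-3.49 ± 0.33). Each of them was high in both rtTA arrays and low in both rtTA-Dmrt5 arrays.

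Also lower were Dppa4 (-2.74), Utf1 (-2.72), the Nodal co-receptor gene Tdgf1 (-2.13), Klf2 (-1.96), Fgf4 (-1.79) and Zfp42, which encodes Rex1 (-1.28). The 2 higher members were Klf4 (2.35 ± 0.15) and Tbx3 (2.65 ± 0.14), factors of ES cells that other tissues, among them epithelia and endoderm, also use. The lowest probe set of Tbx3 read -0.02, and the highest of Utf1 read 0.08. The difference was already there without Dox, where 14 members were lower and 2 higher and the median was -1.88, and 16 members were called in both conditions in the same direction. Averaged over the list, the rtTA arrays with Dox stood at 0.80 and 0.76 and the rtTA-Dmrt5 arrays at -0.42 and -0.38.

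Among the 12 largest decreases were 3 further genes of early embryonic cells: Vrtn, which encodes vertnin, Eras, a Ras gene of ES cells, and Pim2, a serine/threonine kinase gene. Vrtn read 4.20 and 4.40 in rtTA and -0.22 and 0.35 in rtTA-Dmrt5 (-4.23 ± 0.24; adjusted p = 2.7e-06). Eras read 3.86 and 4.02 against -0.14 and -0.12 (-4.06 ± 0.15). The third, Pim2, differed by -3.25 ± 0.12, and the predicted gene Gm9564 by -3.68 ± 0.14. Without Dox the 4 differences were -5.56, -4.28, -3.72 and -3.07, in the order Vrtn, Eras, Pim2 and Gm9564.

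Of 13 caudal progenitor genes 6 were lower and 2 higher with Dox (median -0.43). Nkx1-2, a homeobox gene of the posterior growth zone, read 2.44 and 2.73 in rtTA and -0.23 and -0.43 in rtTA-Dmrt5 (-2.92 ± 0.19), though the highest of its 3 probe sets read 0.04. Wnt8a (-1.67), Evx1 (-1.24), Tbx6 (-0.84) and Fgf8 (-0.71) were lower too, and the Cdx genes Cdx1, Cdx2 and Cdx4 were not called (-0.43, -0.33 and 0.03). Mesoderm and heart genes held 3 lower and 0 higher among 16 (median -0.16), against 10.9% lower and 13.7% higher of all genes. The lower ones were Mixl1, a homeobox gene of the primitive streak (-2.51), the cardiac actin gene Actc1 (-2.48) and Tbx6. The blood and vessel genes Kdr, Pecam1, Gata1, Tal1 and Cdh5 lay between -0.17 and 0.18 and were not called.

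**Figure D2:**
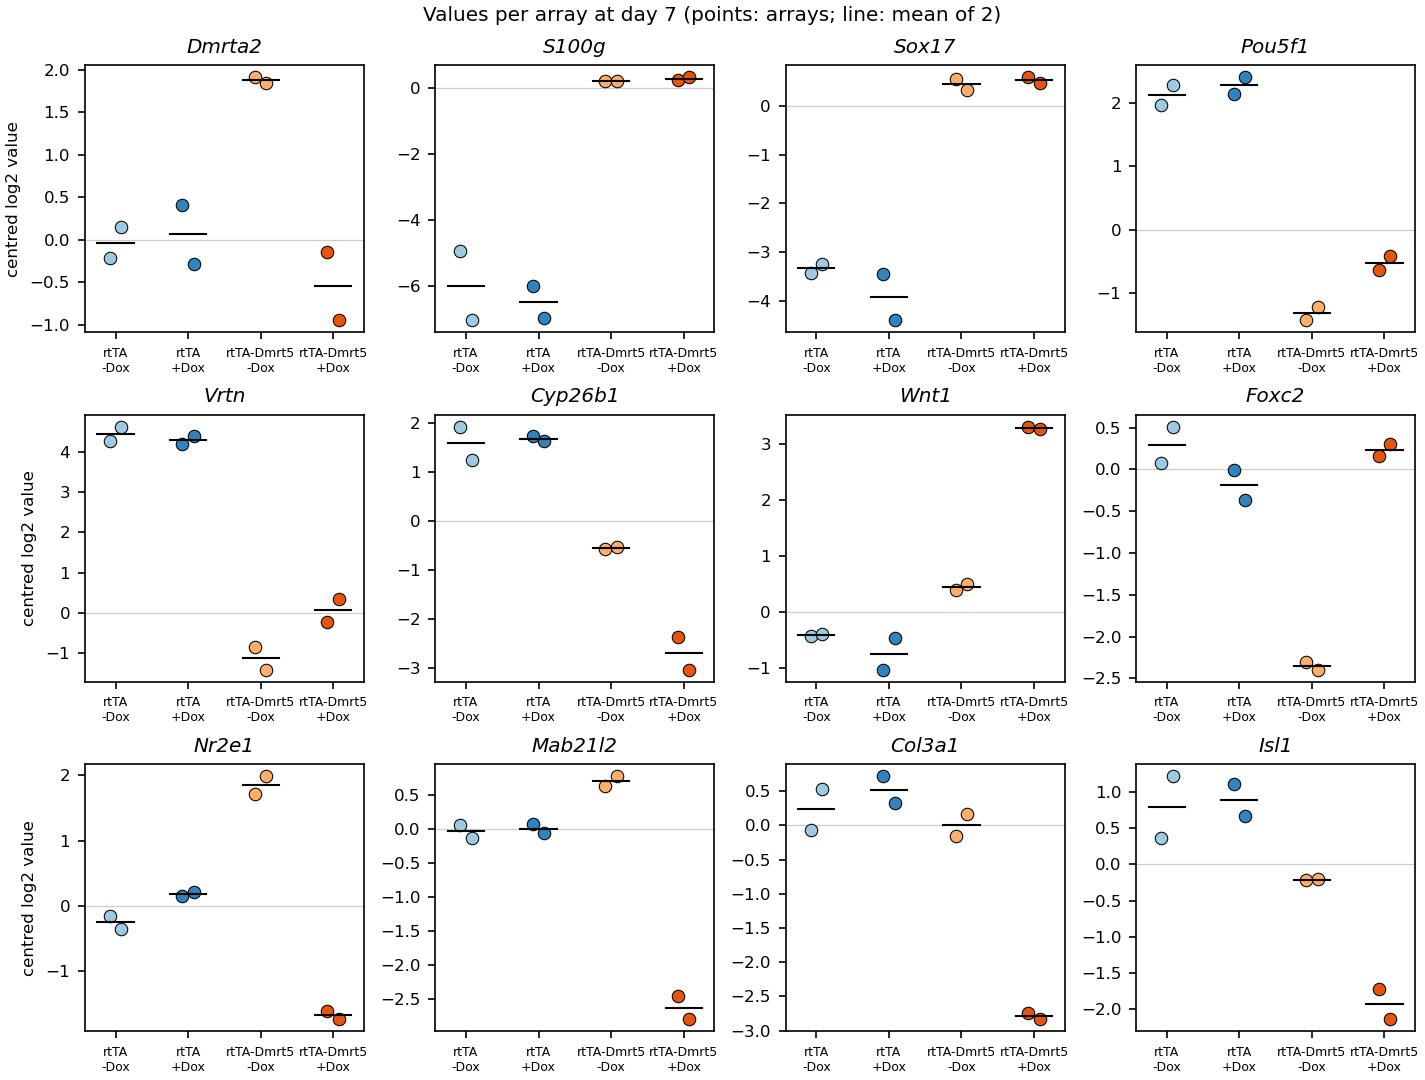
Centred log2 value of 12 genes in the 8 arrays of day 7, as points, with the mean of the 2 arrays of a group as a line; axes differ between panels. S100g, Sox17, Pou5f1 and Vrtn separate the lines with and without Dox alike. Wnt1 is high and Mab21l2 and Col3a1 are low in rtTA-Dmrt5 with Dox, Foxc2 is low and Dmrta2 high in rtTA-Dmrt5 without Dox, and Nr2e1 is low in the former and high in the latter.

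Neuronal genes were lower in rtTA-Dmrt5 with Dox. Of 18 pan-neuronal genes 15 were lower and 1 higher (median -0.93). The neurofilament gene Nefm read 0.47 and 0.07 in rtTA and -1.30 and -1.89 in rtTA-Dmrt5 (-1.87 ± 0.20; adjusted p = 0.000105). Tubb3, the neuronal beta-tubulin gene, read 0.09 and 0.06 against -0.89 and -0.93 (-0.99 ± 0.10). Elavl3, an RNA-binding protein gene of new neurons, read 0.41 and 0.21 against -1.05 and -1.36 (-1.52 ± 0.13). Both rtTA-Dmrt5 arrays lay below both rtTA arrays in every case.

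Nefl (-1.67), the growth cone gene Gap43 (-1.63), Ina (-1.28), Stmn2 (-1.02), the tau gene Mapt (-1.01) and Dcx (-0.93) were lower as well. Rbfox3, which encodes the late neuronal protein NeuN, was the higher member (0.98 ± 0.16). Without Dox fewer members differed, 10 lower and 1 higher, with a median of -0.36. The change between the conditions was called for 6 members, all more negative (1.98% of all genes were more negative and 0.857% more positive in that test), among them Nefm (-1.61), Stmn2 (-0.85) and Tubb3 (-0.70).

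Genes of synaptic vesicles followed. Of 15 members 10 were lower and 1 higher with Dox (median -0.62). The calcium sensor gene Syt1 read 0.70 and 0.21 in rtTA and -1.40 and -1.50 in rtTA-Dmrt5 (-1.91 ± 0.18), with the highest of its 4 probe sets at -0.07. Syt4 (-1.88), Rab3c (-1.24) and the SNARE gene Snap25 (-1.17) were lower, and Sv2b was higher (1.29). Transmitter identity genes mostly did not pass: of 11 only Gad2, a GABA-synthesising enzyme gene, was called (-1.46). Several of the others lay in the lowest level classes, since 8 of the 11 had a median log2 level under 4.

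Transcription factors that start neuron formation split. Of 15 proneural and related genes 3 were higher and 6 lower with Dox (median -0.21). Neurog2, a proneural factor of cortex and midbrain, read -1.50 and -2.45 in rtTA and 0.56 and 0.22 in rtTA-Dmrt5 (2.37 ± 0.26; adjusted p = 0.000137). Neurog1 (1.53 ± 0.23) and its target Neurod1 (1.71 ± 0.15) were also higher. Lower were Ebf3 (-1.09), Ebf2 (-0.88), Neurod4 (-0.88), Insm1 (-0.71), Nhlh1 (-0.59) and Hes6 (-0.41), genes of committed precursors. Neurog3, the remaining neurogenin, was not called (-0.02).

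Neural progenitor genes differed in both directions, with 4 higher and 6 lower of 17 (median -0.05). Fabp7, a fatty-acid-binding protein gene of radial glia, read 0.37 and 0.17 in rtTA and -1.80 and -1.76 in rtTA-Dmrt5 (-2.05 ± 0.10). Slc1a3, the glial glutamate transporter gene of radial glia, went the other way, at -0.74 and -0.55 against 0.95 and 1.11 (1.67 ± 0.11), with the lowest of its 6 probe sets at -0.01. The Notch target Hes5 was higher (0.88), and Sox1, Sox2, Nes and Vim were not called, at -0.05, -0.29, 0.23 and -0.13. Glial genes were mostly not called (2 higher and 1 lower of 10, against 13.7% higher and 10.9% lower of all genes). The platelet-derived growth factor receptor gene Pdgfra stood out at 2.81 ± 0.10, from -2.32 and -2.41 to 0.44 and 0.45. Pdgfra is a gene of oligodendrocyte precursors and also of primitive endoderm, and Gfap, Aqp4 and S100b were not called (-0.21, -0.02 and 0.03).

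Regional genes of the ventral forebrain were lower. Of 13 ventral telencephalon genes 8 were lower and none higher with Dox, and the median, -1.33, was the lowest of the 38 lists. With all probe sets of a gene averaged the median was -1.145, and that of the ES-cell list, -1.234, was lower. Gsx1, a homeobox gene of the ganglionic eminence, read 0.62 and 0.23 in rtTA and -2.10 and -2.81 in rtTA-Dmrt5 (-2.88 ± 0.33; adjusted p = 0.000175). Isl1, a LIM-homeobox gene of striatal and motor neurons, read 1.11 and 0.66 against -1.72 and -2.14 (-2.82 ± 0.25). Dlx2 (-2.57) and Dlx1 (-2.09), factors of GABAergic neurons, were lower, and so were Sp8 (-1.96) and Ebf1 (-1.33). Dlx5, Dlx6, Gsx2, Lhx6 and Nkx2-1 lay between -0.66 and 0.37 and were not called.

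Without Dox 5 of these 13 were lower. The change between the conditions was called for 5 members, all more negative: Gsx1 (-2.51), Isl1 (-1.82), Ebf1 (-1.37), Gbx2 (-1.17) and Sp8 (-1.06). For Gsx1 and Ebf1 no difference was called without Dox (-0.36 and 0.04). The list averages per array were 0.62 and 0.48 in rtTA and -0.75 and -0.89 in rtTA-Dmrt5 with Dox, against 0.54 and 0.48 and -0.07 and -0.15 without it.

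Diencephalon genes were lower too, with 9 lower and 1 higher of 13 (median -0.79). Gbx2, a homeobox gene of thalamus and anterior hindbrain, read 1.995 and 2.08 in rtTA and -1.07 and -1.54 in rtTA-Dmrt5 (-3.34 ± 0.19; adjusted p = 2.44e-06). Shox2, a homeobox gene of thalamic precursors, read 0.81 and 0.52 against -2.06 and -2.44 (-2.92 ± 0.21). Barhl2 (-1.71) and Foxd3 (-1.37) were lower, and the Wnt effector gene Tcf7l2 was the higher member (0.43). Otx1 was not called with Dox (-0.32) but was higher without it (2.33), and the change was called.

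Cortical progenitor genes divided evenly, 6 higher and 6 lower of 15 (median -0.03, or 0.14 with all probe sets of a gene averaged). Fezf2, a zinc-finger factor of forebrain and deep-layer cortical neurons, read -2.46 and -2.82 in rtTA and 0.71 and 0.51 in rtTA-Dmrt5 (3.25 ± 0.14; adjusted p = 1e-06). Tbr1, a T-box gene of early cortical neurons, was higher by 1.57 ± 0.26, and Emx2, a factor of the medial cortex, by 0.64 ± 0.14. Nr2f1, which encodes COUP-TFI of the caudal cortex, read 0.01 and 0.05 in rtTA against -1.79 and -2.18 (-2.02 ± 0.12). Pax6, a progenitor factor, was lower by -1.36 ± 0.17 on the mean of its brightest probe sets, whose full set of 5 ran from -2.63 to -0.01. The LIM-homeobox gene Lhx2 was lower with Dox (-0.71) and higher without it (1.09), and Fezf1 did likewise (-0.47 and 1.01).

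The cortical hem, a signalling centre at the cortical edge that releases Wnt and Bmp proteins, was represented by 19 genes together with Cajal-Retzius neuron genes, 10 higher and 3 lower (median 0.29). Wnt8b read -2.50 and -3.22 in rtTA and 0.67 and 0.57 in rtTA-Dmrt5 (3.48 ± 0.22; adjusted p = 5.06e-06), and was as high without Dox (3.25). The hem ligand gene Bmp6 (1.67), the R-spondin gene Rspo1 (1.75), the LIM-homeobox gene Lmx1a (1.46), Bmp7 (1.07) and Msx2 (0.83) were higher. Ttr belongs to this list as well as to the endoderm list. Reln, the secreted product of Cajal-Retzius neurons, was lower (-1.08), as was Trp73 (-0.62), and Calb2 was not called (-0.19).

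Eye field and hypothalamus genes held 5 higher and 4 lower of 13, against 13.7% and 10.9% of all genes. Otp, a homeobox gene of hypothalamic neurons, was lower by -3.07 ± 0.22, with the highest of its 2 probe sets at 0.16, and Vax2, a ventral eye factor, by -2.42 ± 0.19. Rax, the retinal and hypothalamic homeobox gene, read -0.31 and -0.13 in rtTA and 1.10 and 0.99 in rtTA-Dmrt5 (1.26 ± 0.12), with no difference called without Dox (-0.12). The Mab21l genes are described with the change between conditions.

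**Figure D3:**
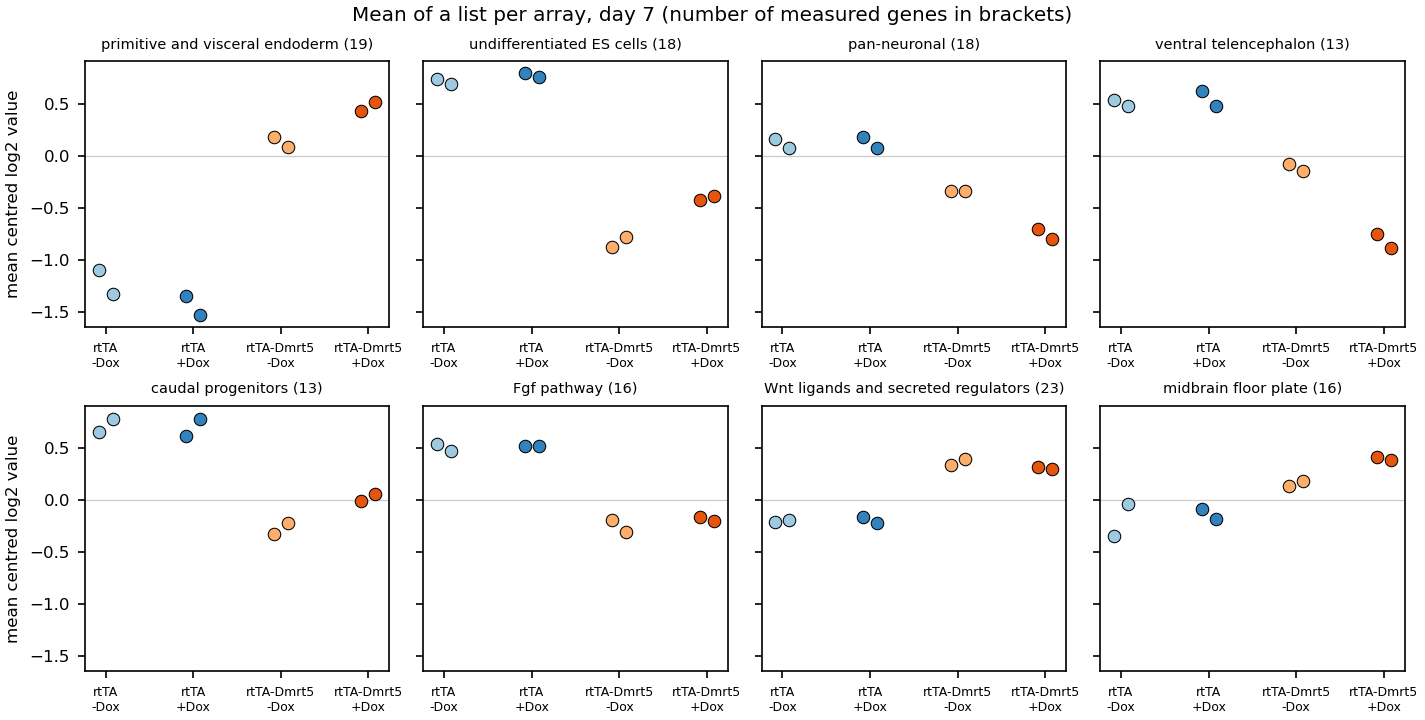
Mean centred log2 value over the measured members of 8 gene lists in each array of day 7, 2 points per group, on a common axis. For pan-neuronal, ventral telencephalon and ES-cell genes the rtTA arrays lie close together with and without Dox. The rtTA-Dmrt5 arrays labelled +Dox stand lower than those labelled -Dox for pan-neuronal (-0.71 and -0.80 against -0.34 and -0.34) and ventral telencephalon genes. For ES-cell genes they stand higher (-0.42 and -0.38 against -0.88 and -0.78). The rtTA arrays spread more widely for endoderm (-1.53 to -1.10) and floor plate genes (-0.34 to -0.04).

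In the midbrain lists floor plate genes tended higher. Of 16 midbrain floor plate genes, which mark the ventral midline source of dopaminergic neurons, 9 were higher and 4 lower with Dox (median 0.59). Without Dox 6 were higher and 2 lower (median 0.44). The change between the conditions was called more positive for 1 member and more negative for 2. Wnt1, a ligand of the midbrain and its boundary, read -1.03 and -0.46 in rtTA and 3.30 and 3.25 in rtTA-Dmrt5 (4.02 ± 0.24 or 16.2-fold; adjusted p = 3.92e-06). Foxa2, the floor plate forkhead factor, read -0.33 and 0.08 against 1.18 and 1.21 (1.32 ± 0.19). Lmx1a (1.46 ± 0.34), Wnt5a (1.60 ± 0.15), the matrix gene Spon1 (1.02) and the netrin gene Ntn1 (0.58) were higher too. Foxa2 is also an endoderm factor, and in the same arrays Sox17 and Gata4 were higher. Which cells the Foxa2 difference came from was not tested.

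Lower in this list were Foxa1 (-1.55), the signal Shh (-0.94), Lmx1b (-0.84) and Msx1 (-0.43). Shh and Foxa2, both floor plate genes, differed in opposite directions. The midbrain-hindbrain organizer list, a Fgf8-producing boundary, had 3 higher and 9 lower of 17 (median -0.43). En1 and En2, paired homeobox genes of this region, parted: En1 read -0.20 and -0.36 in rtTA and 1.23 and 1.04 in rtTA-Dmrt5 (1.41 ± 0.12), and En2 read 0.04 and 0.05 against -1.54 and -1.52 (-1.58 ± 0.16). Without Dox En1 did not pass (0.14) and En2 was higher (0.57), and the change was called for both.

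Of 16 dopaminergic neuron genes 2 were higher and 4 lower, against 13.7% higher and 10.9% lower of all genes. En1 and Dlk1 were the higher ones, and En2, Foxa1, Lmx1b and Ret, the receptor gene for Gdnf (-0.98), the lower ones. The enzyme and transporter genes Th (-0.08), Ddc (0.42), Slc18a2 (0.83) and Slc6a3 (0.30) and the factors Nr4a2 (-0.03) and Pitx3 (-0.08) were not called with Dox. Th was higher in rtTA-Dmrt5 without Dox (1.74), and the change was called (-1.82). Ventral-lateral midbrain genes held 7 higher and 4 lower of 18. The forkhead gene Foxn4 (-1.32) and the sensory and red nucleus factor Pou4f1 (-1.41) were lower, Nkx6-2 (0.65) and Tal2 (1.04) higher, and Olig2 was not called with Dox (0.52) but was higher without it (2.34), with a called change.

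Of 15 hindbrain and spinal cord factors 8 were lower and 2 higher (median -0.54), against 10.9% and 13.7% of all genes. The higher ones were En1 and Egr2, a zinc-finger factor of hindbrain segments (0.59). The lower ones were led by Lbx1, a homeobox gene of dorsal interneurons (-2.96 ± 0.12), Pax3 (-1.56 ± 0.11), Pax7 (-1.09 ± 0.11) and Ptf1a (-0.99). Of 23 Hox genes 7 were lower and none higher (median -0.33). Hoxa2, the most anteriorly expressed of them in hindbrain, read 1.93 and 1.96 in rtTA and -1.31 and -1.25 in rtTA-Dmrt5 (-3.23 ± 0.17; adjusted p = 2.01e-06). Hoxc4 (-1.35), Hoxc8 (-1.30), Hoxd9 (-1.30), Hoxb1 (-1.29), Hoxb9 (-0.89) and Hoxa3 (-0.35, highest probe set 0.10) were the others. Without Dox 11 Hox genes were lower and none higher, the same 7 among them, and no Hox gene of the list was called in the change between conditions.

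Neural crest genes were lower in 8 of 15 cases and higher in 1 (median -0.56). Besides Pax3 and Pax7 these included Ngfr, the low-affinity neurotrophin receptor gene (-1.47, highest probe set 0.03), Twist1 (-1.39), Foxd3 (-1.37), Tfap2a (-1.06) and Tfap2b (-1.01). The defining markers Sox10 (0.20) and Snai2 (0.19) were not called. Mesenchyme genes held 2 higher and 6 lower of 15 (median -0.37), against 13.7% and 10.9% of all genes. Col3a1, a fibrillar collagen gene, read 0.71 and 0.33 in rtTA and -2.74 and -2.83 in rtTA-Dmrt5 (-3.31 ± 0.24; adjusted p = 1.01e-05), with no difference called without Dox (-0.23). Acta2 (-2.08), Foxc1 (-1.04) and Col1a2 (-0.78) were lower, and Col5a2 (1.39) and Prrx1 (1.09) higher. The highest probe set of Acta2 read 0.05 and that of Col1a2 0.002, so their probe sets disagreed.

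Wnt signalling acts through secreted ligands, Frizzled receptors and beta-catenin, and is shaped by secreted antagonists and R-spondins. Of 23 Wnt ligand and secreted regulator genes 10 were higher and 4 lower with Dox (median 0.13). Ligand genes higher with Dox were Wnt1, Wnt8b, Wnt5a, Wnt5b (1.52) and Wnt4 (0.60), while Wnt7a (-0.996) and Wnt7b (-1.06), ligands of cortex and spinal cord, were lower. The antagonist gene Dkk1 was higher, at -0.60 and -1.04 in rtTA and 1.05 and 0.96 in rtTA-Dmrt5 (1.83 ± 0.16), and Frzb was lower (-1.60 ± 0.12). Of 12 Wnt target genes 5 were higher and 1 lower (median 0.35): Rnf43 (2.16), Dkk1, Notum (1.28), Sp5 (1.18) and Znrf3 (0.51), all feedback genes of the pathway, against Lgr5 (-0.61, highest probe set 0.20). Axin2, a general target, was not called (0.32), nor were Lef1 (-0.61) and Ccnd1 (-0.23).

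Fgf signalling runs through Erk, and the Sprouty, Dusp and Etv genes report on it as feedback and effector genes. Of 16 Fgf pathway genes 8 were lower and 1 higher (median -0.51). Dusp6, an Erk phosphatase gene, read 1.16 and 1.56 in rtTA and -1.46 and -1.23 in rtTA-Dmrt5 (-2.71 ± 0.15; adjusted p = 2.7e-06). Etv5 (-1.84), Etv4 (-1.75), Spry2 (-1.45), Spry4 (-1.24) and Il17rd (-0.46) were lower, and so were the ligand genes Fgf4 and Fgf8. The receptor genes Fgfr1, Fgfr2 and Fgfr3 were not called, at 0.03, 0.13 and 0.19. Fgf15 was the higher member (0.96 ± 0.09). Without Dox 10 were lower and none higher, with a median of -0.92.

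Bmp and activin genes held 7 higher and 4 lower of 20 (median 0.17). Ligand genes Bmp6, Bmp7, Bmp2 (0.64) and Inhbb (1.12, lowest probe set -0.20) were higher and Bmp4 was not called (0.27). The targets Id1 (-0.91) and Id2 (-0.84) were lower, Id4 was higher (0.83) and Id3 was not called (0.17). Fst, the activin-binding antagonist gene, was lower (-1.39). In the Hedgehog pathway, where Ptch1 and Gli1 are direct targets, 2 of 12 were higher and 2 lower, against 13.7% and 10.9% of all genes. Gli1 (1.11 ± 0.14) and the co-receptor gene Cdon (1.20 ± 0.10) were higher. Shh and the co-receptor gene Boc (-0.53, highest probe set 0.14) were lower, whereas Ptch1 was not called (-0.02). Gli1 and Ptch1 therefore did not differ alike.

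Notch pathway genes held 5 higher and 2 lower of 15, against 13.7% higher and 10.9% lower of all genes. Hes5, Heyl (0.78, lowest probe set -0.007), Lfng (0.57), Hes1 (0.53) and Notch1 (0.38) were higher. The ligand genes Dll1 (-0.57) and Dll3 (-0.57) were lower. The receptor genes Notch2 and Notch3 and the target genes Hey1, Hey2 and Nrarp were not called, so neither receptor nor target genes differed alike. Retinoic acid is made by Aldh1a enzymes and broken down by Cyp26 enzymes. Of 11 genes of this pathway 2 were higher and 4 lower, against 13.7% and 10.9% of all genes. Cyp26b1 had the largest decrease of all genes, at 1.73 and 1.62 in rtTA and -2.35 and -3.02 in rtTA-Dmrt5 (-4.37 ± 0.25 or 20.6-fold lower; adjusted p = 2.71e-06). Aldh1a2, the main embryonic synthesis enzyme gene, was lower too (-1.64 ± 0.21), Cyp26a1 (0.65) and the retinol receptor gene Stra6 (1.73) were higher, and Rarb, a direct target, was not called (-0.52).

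Among the Dmrt family itself 1 of 8 was higher and 3 lower with Dox (median -0.47), against 13.7% and 10.9% of all genes. A median log2 level of at least 4 was reached by 5 of the 8. Dmrt3, a close relative of Dmrta2 in cortex and hem, read -0.36 and -1.04 in rtTA and 0.56 and 0.36 in rtTA-Dmrt5 (1.17 ± 0.20; adjusted p = 0.002), less than without Dox (2.53). The lowest of the 4 Dmrt3 probe sets read 0.09 with Dox. Dmrta1, the nearest relative, read 0.49 and -0.03 against -0.74 and -0.80 (-1.001 ± 0.21) and was higher without Dox (1.84). Dmrtb1 (-0.95) and Dmrt1 (-0.53) were the other lower members. For Dmrta1, Dmrta2, Dmrt3 and Dmrt1 the line difference was lower with Dox than without it, by called changes of -2.84, -2.52, -1.37 and -1.73.

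Most genes that report on growth and stress were not called with Dox, where 13.7% of all genes were higher and 10.9% lower. Of 16 cell cycle genes 1 was lower, Plk1 (-0.39), and none higher, and all 16 lay between -0.39 and 0.16. Without Dox 10 of the 16 were lower, against 13.4% of all genes, and no member passed the test of the change. The integrated stress response list had 3 lower of 14, Chac1 (-0.71), Mthfd2 (-0.32) and Shmt2 (-0.28), and none higher. Without Dox 6 of these 14 were lower and none higher. The respiratory chain list had 1 lower of 14, Ndufa4 (-0.50), and none higher. Germline and 2-cell-like genes held 1 lower of 7, Sycp3 (-1.23), and genes used to compare sex chromosomes 1 higher and 1 lower of 8.

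The remaining large decreases belonged to no list. Pdzph1, a gene of a PDZ and PH domain protein, read 0.53 and 0.46 in rtTA and -3.03 and -2.77 in rtTA-Dmrt5 (-3.40 ± 0.15; adjusted p = 1.06e-06). Ndnf, a secreted neurotrophic factor gene, read 0.49 and 0.36 against -3.01 and -2.85 (-3.35 ± 0.15). Cbln2, a synapse-organising secreted protein gene, differed by -3.35 ± 0.16. Without Dox the differences of Pdzph1 and Cbln2 were -0.47 and -1.87, both called, and that of Ndnf was -0.38 and was not called.

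The design also asks how much of the difference between the lines was there without Dox. That comparison shares no array with the one with Dox, though it shares the 2 lines and the estimate of the spread. Without Dox 2774 genes were higher and 2436 lower, 5210 in all (28.6%). Lower calls outnumbered higher ones with each probe set on its own (3685 higher and 4113 lower) and among genes at a median log2 level of at least 8 (1364 higher and 1645 lower). Without the first or second rtTA-Dmrt5 array or the first rtTA array of that comparison the total was 3470, 3085 and 3154. Of the 4468 genes called with Dox, 2864 were called without it as well, which is 64.1% of the former and 55% of the latter. The direction was the same for 2781 of them, 1679 higher and 1102 lower in both, and opposite for 83. Across 18193 genes, which are not independent replicates, the 2 line differences correlated at 0.74 (Pearson) and 0.63 (Spearman), given as a description.

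Genes with the largest difference in both conditions were S100g, Gask1b, Igfbp1, Car4 and B4galnt2 among the higher and Vrtn, Eras, Dppa2, Pim2 and Gm9564 among the lower ones. Car4, a membrane-bound carbonic anhydrase gene, read -2.91 and -2.80 in rtTA and 1.24 and 1.30 in rtTA-Dmrt5 with Dox, and at -2.93 and -2.85 against 1.11 and 1.02 without it (4.12 ± 0.10 and 3.95 ± 0.10). For none of these 10 genes did the change between conditions pass, with adjusted p from 0.0773 (Vrtn) upwards.

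**Figure D4:**
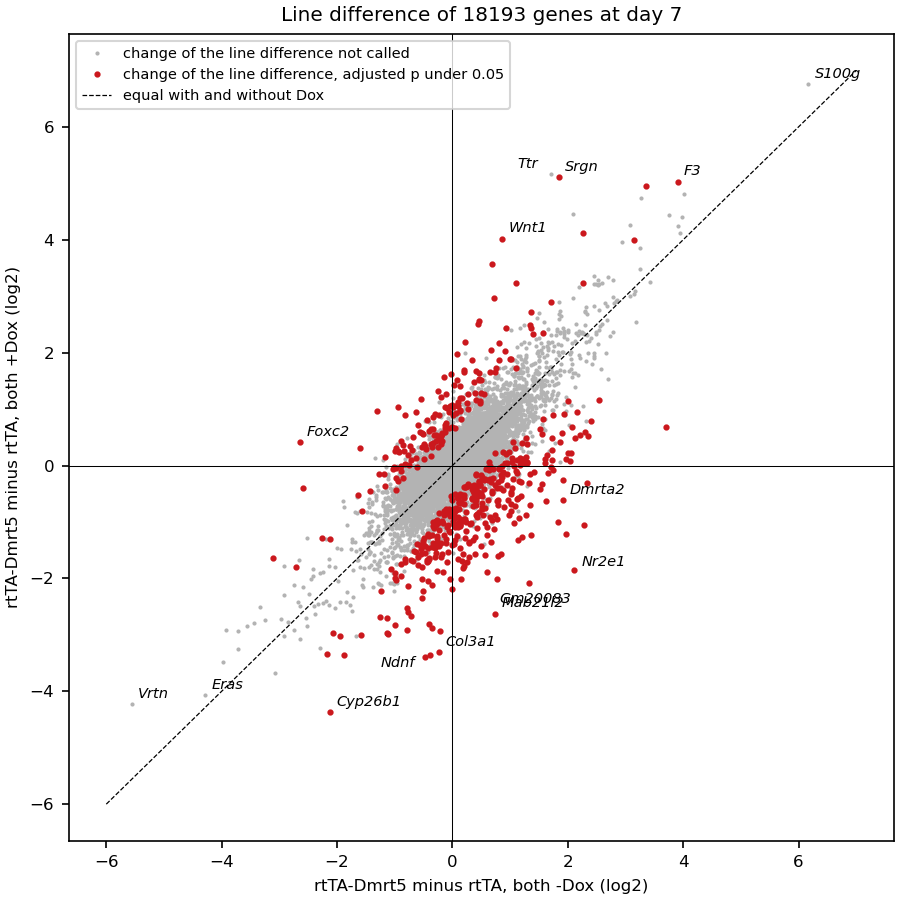
Line difference without Dox (horizontal) against the line difference with Dox (vertical) at day 7, in log2, for 18193 genes; red points are genes whose change between the conditions passed limma's test, and the dashed line marks equal differences. Most points follow the dashed line (Pearson r = 0.74 across genes), and red points lie more often below it (360) than above it (156).

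Of the 83 genes with opposite directions 65 were lower with Dox and higher without, and 18 the reverse. Nr2e1, which encodes the orphan nuclear receptor Tlx of neural stem cells, read 0.15 and 0.21 in rtTA and -1.61 and -1.74 in rtTA-Dmrt5 with Dox, but -0.15 and -0.35 against 1.71 and 1.99 without it (-1.85 ± 0.25 and 2.10 ± 0.25). Its second probe set did not follow and read 0.17 with Dox. Mab21l1, a gene of eye and brain development, turned likewise (-1.21 and 1.96), as did Gm20083 (-2.07 and 1.32), the glycine receptor gene Glra1 (-1.22 and 1.36) and Prima1, whose product anchors acetylcholinesterase (-1.26 and 1.20). In each of these genes it was the rtTA-Dmrt5 arrays that moved between the conditions, while the rtTA arrays differed little with and without Dox.

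The 5 leading genes of the other kind were the alpha-defensin gene Defa31 (0.97 and -1.30), Hoxb5os on the strand opposite Hoxb5 (1.04 and -0.94), the Wnt5a receptor gene Ror2 (0.90 and -0.83), the GTPase-activating protein gene Arhgap29 (0.95 and -0.64) and Fgf3 (0.71 and -0.60). The lowest of the 3 Arhgap29 probe sets read 0.05 with Dox. Ror2 read -0.10 and 0.07 in rtTA and 0.94 and 0.83 in rtTA-Dmrt5 with Dox, and 0.21 and 0.23 against -0.59 and -0.62 without it. Hoxb5os read -0.184 and -0.408 in rtTA with Dox and 1.303 and 0.415 without it. Its rtTA-Dmrt5 arrays read 1.054 and 0.44 with Dox and -0.232 and 0.062 without it, so both lines moved. Alpha-defensin genes are near copies of each other, so which of them the Defa31 probe set read is uncertain. Reads of Hoxb5os and Hoxb5 depend on the strand of the probes, and Hoxb5 itself was not called (-0.76 and -0.77). Of these 5 calls with Dox, those of Defa31, Hoxb5os and Fgf3 were lost when single arrays were left out.

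The change of the line difference was tested directly and called for 516 genes (2.84%), 156 more positive and 360 more negative. That count fell to between 213 and 340 without either rtTA-Dmrt5 array with Dox (326 and 238), either without Dox (264 and 213) or either rtTA array without Dox (340 and 294). Among genes whose change was called, the most negative changes were in Nr2e1 (-3.96 ± 0.36), Gm20083 (-3.40), Mab21l2 (-3.36), the secreted protein gene Wfdc1 (-3.34) and Mab21l1 (-3.17). Mab21l2 read 0.07 and -0.06 in rtTA and -2.45 and -2.79 in rtTA-Dmrt5 with Dox, against 0.06 and -0.13 and 0.64 and 0.77 without it. The most positive called changes were in Srgn (3.27 ± 0.70), Wnt1 (3.16 ± 0.34), Foxc2 (3.06 ± 0.22), Gm3764 (2.88) and Defa31 (2.28). Foxc2, a forkhead gene of mesenchyme, did not differ with Dox beyond the threshold (0.42 ± 0.16; adjusted p = 0.0801), and its change came with low values without Dox, at -2.31 and -2.40 in rtTA-Dmrt5 against 0.07 and 0.51 in rtTA. The change for Srgn rested on widely spread rtTA arrays, at -1.47 and -2.99 without Dox and -3.99 and -5.38 with it, and passed narrowly (adjusted p = 0.0391). The change for Ttr, 3.46, was larger and did not pass (adjusted p = 0.0625). The highest-class probe set of Gm3764 differed by 3.58 with Dox, and the lowest of its 3 by -0.16.

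Line differences also followed 2 chromosomes, as assigned by RefSeq's GRCm38.p6 for 18032 genes. Over the 1443 genes of chromosome 11 the median difference was 0.22 with Dox and 0.21 without, and 75% of these genes lay above 0 with Dox. Over the 860 genes of chromosome 10 the median was -0.13 with Dox and -0.14 without, and 31.7% lay above 0. The medians of the other 18 chromosomes ran from -0.03 to 0.02 with Dox. Chromosome 11 genes were called higher in 34% and lower in 3.81% of cases, and chromosome 10 genes in 7.56% and 25.1%, against 12.2% and 10.8% on the others.

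The shift ran along the whole of both chromosomes. With genes in their order cut into 10 equal parts, medians with Dox ran from 0.16 to 0.29 along chromosome 11 and from -0.22 to -0.09 along chromosome 10. Per array, chromosome 11 medians were between -0.14 and -0.12 in the 4 rtTA arrays of day 7 and between 0.04 and 0.06 in the 4 rtTA-Dmrt5 arrays, and those of chromosome 10 between 0.06 and 0.09 and between -0.05 and -0.02. Neither range overlapped between the lines. Genes named above that lie on chromosome 11 include Igfbp1, Car4, B4galnt2, Sparc, Krt19, Cldn7, Rnf43, Rbfox3, Ebf1, Etv4, Hoxb1, Hoxb9, Axin2, Ddc, Glra1 and Hoxb5os. Those on chromosome 10 include Srgn, Nr2e1, Dusp6, Fabp7, Syt1, Egr2 and Gli1. Neither list is complete. Leaving out both chromosomes left 3642 genes called with Dox, 1933 higher and 1709 lower. What lies behind the 2 shifts was not tested.

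**Figure D5:**
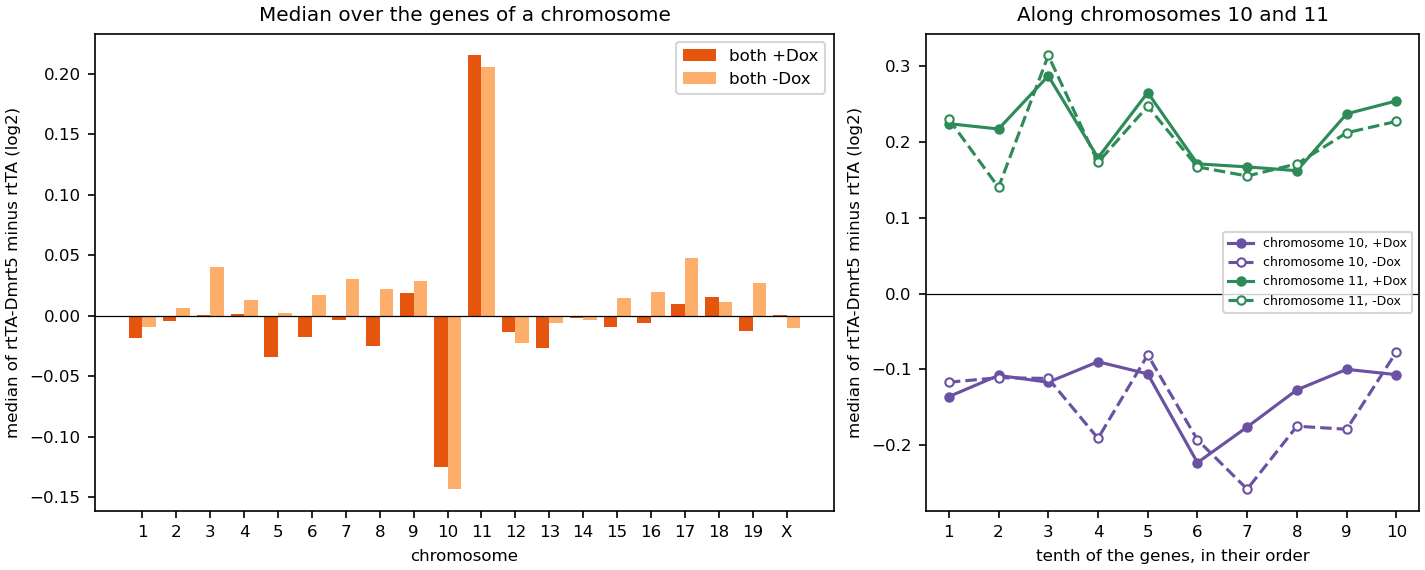
Left, median line difference (log2) over the genes of each chromosome with and without Dox, as bars from 0; right, the same median in 10 successive parts of the genes of chromosomes 10 and 11. Chromosome 11 (0.22 and 0.21) and chromosome 10 (-0.13 and -0.14) stand apart from the others, and every part of each keeps its side of 0.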

How the data were processed

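Mouse gene expression arrays, 12 in 6 groups of 2, were deposited as 1 table. The authors made its log2 values with RMA, version not given, per the submitters' processing notes; RMA corrects background, normalises arrays to the same distribution and so hides a shift common to all genes. In the deposited values each probe set's median over the 12 arrays is 0 to within 5e-07, so no level remains, and no source states this centring. A level class (median log2 of at least 8, 4 or 2) was read from the spacing of the stored digits, a reading tested on 20000 simulated probe sets, of which 97.6% fell in the right class.

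Of 45101 probe sets 64 are controls, 34945 name 1 gene, 932 several and 9160 none. Names come from GEO's platform annotation, and 34741 probe sets matched RefSeq identifiers. A gene's value is the mean of its probe sets in the highest level class it reaches. Group means were fitted with limma 3.58.1 in R 4.3.3 over all 12 arrays, with eBayes moderation (6 residual and 3.59 prior degrees of freedom) and Benjamini-Hochberg adjustment over 18193 genes, threshold 0.05. The number of arrays limits the precision. On data simulated for the comparison with Dox over 18193 genes, 74 of 100 genes changed by 1 log2 unit passed, 29 of 100 changed by 0.5, and 5 of 17993 unchanged genes. The simulated noise was independent between genes and few genes changed, whereas 24.6% were called in the real comparison. These pass rates therefore do not give the sensitivity of the real comparison.

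Genes named are Dmrta2, the 12 largest differences in each direction among called genes whose arrays did not overlap, the 5 largest called changes in each sign, 5 genes of each shared and opposite direction, and members of 38 gene lists. The genes and lists were chosen with earlier results of these data known. Alternatives were other probe-set summaries, level filters, array centring, array weights, a robust prior, fewer arrays, leaving out each array, replicate blocks and, added after seeing the data, counts without chromosomes 10 and 11. The day 9 arrays entered the estimate of the spread and the level class, which was read from values centred over the 12 arrays. No group mean compared here holds them.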

Additional observations from a re-analysis of the deposited data

Results flagged for a closer look

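The results here were picked out because the difference between the lines itself differed between the arrays with and without Dox, by limma's test of that change (adjusted p under 0.05). They are 84 of the 281 genes named, and the values are changes of the line difference in log2, with Dox minus without. Groups of 2 arrays are too small for a search for single outlying arrays.

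The change was negative in genes called in opposite directions with and without Dox, namely Nr2e1 (-3.96), Gm20083 (-3.40), Mab21l2 (-3.36), Wfdc1 (-3.33), Mab21l1 (-3.17), Dmrta1 (-2.84), Glra1 (-2.58), Prima1 (-2.46) and Foxn4 (-2.46). To the same kind belong En2 (-2.15), Lhx2 (-1.80), Dmrt1 (-1.73), Nhlh1 (-1.71), Fezf1 (-1.48) and Col1a2 (-1.30). The change was negative in genes called with Dox and not without, namely Col3a1 (-3.08), Ndnf (-2.97), Gsx1 (-2.51), Nr2f1 (-1.97), Barhl2 (-1.96), Pax3 (-1.75), Nefm (-1.61), Ebf1 (-1.37) and Tfap2b (-1.34). To the same kind belong Neurod4 (-1.29), Wnt7a (-1.23), Gad2 (-1.15), Pax7 (-1.13), Pou4f1 (-1.11), Wnt7b (-1.10), Ina (-1.02), Ebf2 (-0.91) and Stmn2 (-0.85). To the same kind belong Tubb3 (-0.70) and Boc (-0.69). The change was negative in genes called in the same direction with and without Dox, namely Pdzph1 (-2.93), Cyp26b1 (-2.24), Shox2 (-2.13), Isl1 (-1.82), Fabp7 (-1.62), Dusp6 (-1.58), Cbln2 (-1.48), Dmrt3 (-1.36) and Nefl (-1.24). To the same kind belong Gbx2 (-1.17), Sp8 (-1.06), Lbx1 (-0.89), Fst (-0.89), Emx2 (-0.88) and Elavl3 (-0.84). The change was negative in genes called without Dox and not with, namely Otx1 (-2.65), Dmrta2 (-2.52), Olig2 (-1.83) and Th (-1.82).

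The change was positive in genes called in opposite directions with and without Dox, namely Defa31 (2.28), Hoxb5os (1.99), Ror2 (1.73), Arhgap29 (1.59), Fgf3 (1.31), Egr2 (1.15) and Lfng (1.09). The change was positive in genes called with Dox and not without, namely Sp5 (1.72), Rax (1.38), En1 (1.28), Wnt5b (1.05), Cdon (1.03), Inhbb (1.02), Bmp7 (0.99), Gli1 (0.86) and Fgf15 (0.83). To the same kind belongs Id4 (0.68). The change was positive in genes called in the same direction with and without Dox, namely Srgn (3.27), Wnt1 (3.16), Gm3764 (2.88), Dab2 (1.85), Ddn (1.59), Aldh1a2 (1.46), Slc1a3 (1.26), F3 (1.13) and Dlk1 (1.06). To the same kind belong Stra6 (0.98), Zfp42 (0.97) and Notum (0.89). For Dab2 and F3 the rtTA arrays moved more between the conditions than the rtTA-Dmrt5 arrays. With Dox minus without, Dab2 moved by -1.36 in rtTA and 0.50 in rtTA-Dmrt5, and F3 by -0.83 and 0.30. None of these moves within a line was called. The change was positive in 1 gene called without Dox and not with, Foxc2 (3.06).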

How the results depend on the processing

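With 2 arrays in each group, counts of called genes depended on single arrays. Leaving out each array of a comparison in turn gave 2874 to 3507 genes with Dox, 3085 to 3839 without Dox and 213 to 387 for the change, against 4468, 5210 and 516. Among genes at a median log2 level of at least 8 the counts with and without Dox were 2460 and 3009, from fewer genes tested. The labels do not say that equal replicate numbers share a batch, and deviations of same-numbered arrays correlated at 0.19 between the 2 lines with Dox. With the replicate block within line and day the counts were 4117, 4774 and 321, and with the replicate block over all arrays 4265, 4932 and 476. Array weights gave 4743, 6063 and 707.

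Averaging all probe sets of a gene turned the list medians of cortical progenitors from -0.027 to 0.14 and of eye field genes from 0.002 to -0.014, and moved those of others to 0.379 for floor plate, -0.502 for neural crest, -0.128 for neural progenitors, 1.37 for endoderm, -0.061 for Hedgehog, -0.657 for Fgf and -0.034 for respiratory chain genes. The chromosome medians with Dox were -0.19 on chromosome 10 and 0.293 on chromosome 11 at a level of at least 8, and chromosome 11 gave 0.198 over probe sets and 0.215 to 0.230 without single arrays. The cause of these shifts was not tested. Read by its weakest probe set alone, the difference with Dox turned to -0.232 for Dpp4, -0.077 for B4galnt2, 0.166 for Nr2e1, -0.161 for Gm3764 (its change -0.201), 0.047 for Acta2, 0.139 for Boc, 0.002 for Col1a2, 0.289 for Grhl2, -0.007 for Heyl, -0.134 for Hnf4a, 0.102 for Hoxa3, -0.196 for Inhbb, 0.202 for Lgr5, -0.088 for Ndn, 0.026 for Ngfr, 0.035 for Nkx1-2, 0.161 for Otp, -0.012 for Slc1a3, -0.049 for Sparc, -0.022 for Tbx3 and 0.081 for Utf1. Of 291 results on named genes, 76 lost their call under some alternative.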
